A study of Homo sapiens with 8 samples.

Results

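The keratin genes encode the intermediate filament proteins of epithelial cells. Genes were taken as keratins where a probe set of the array was annotated with 1 symbol and that symbol was KRT followed by a number, and each gene was represented by its probe set with the highest mean over the 8 arrays. Of 19775 genes on the array, 44 were keratins by this rule, 24 of type I and 20 of type II. A few keratin genes were not analysed here. PC3-Epi, derived from the human prostate cancer line PC3 and kept for its luciferase signal and its epithelial colonies, was measured on 1 array. The mesenchymal subpopulations PC3-EMT1, PC3-EMT12 and PC3-EMT14 were isolated from PC3-Epi after growth beside macrophages, and each was measured on 1 array (the EMT lines). PC3-EMT1 and PC3-EMT14 were each also measured after lentiviral delivery of a scrambled shRNA (2 arrays, Scr) or of sh4, an shRNA directed at the transcriptional repressor ZEB1 (2 arrays). All cells descend from 1 cancer line and were grown in the same serum-containing medium. The sample records list a recovery of 2 days for all 8 samples. The parental PC3 cells had been given a luciferase vector, and the cells called untransduced here carried no shRNA. On the arrays sh4 was the only ZEB1 shRNA, although the study also delivered another, sh2, to the same lines.

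Keratin filaments are obligate heteropolymers, in which a type I protein pairs with a type II protein. Simple epithelia use KRT8 and KRT18, to which KRT7, KRT19 or KRT20 may be added, whereas basal cells of stratified epithelia use KRT5 with KRT14 or KRT15. Suprabasal layers add differentiation keratins such as KRT1 with KRT10 in skin or KRT4 with KRT13 in mucosa, and hair follicles have their own set. The filaments are anchored at desmosomes, and their loss alongside a gain of vimentin is a familiar mark of the epithelial-to-mesenchymal transition (EMT). The 2 families lie in clusters. Of the 44 genes, 23 were on chromosome 17, all of type I, and 21 on chromosome 12, comprising the 20 type II genes and KRT18.

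The values are log2 hybridisation signals normalised with RMA (robust multi-array average). The untransduced and transduced arrays lay on different scales, with medians over all probe sets of 4.33 to 4.35 and 6.19 to 6.23, so that levels were compared only within a set. The highest bacterial control probe set, for which human RNA holds no target, stood at 4.56 on the untransduced and 6.00 on the transduced arrays, and values under it are called background below. The summed epithelial and mesenchymal markers followed the labels, though not every member did. Summed on the linear scale, the 6 epithelial markers stood at 15400 in PC3-Epi and 708 to 1060 in the EMT lines. They stood at 1500 to 2230 with Scr and 6580 to 8200 with sh4. The 5 mesenchymal markers stood at 6570 in PC3-Epi, 11600 to 14900 in the EMT lines, 19100 to 25000 with Scr and 13700 to 16100 with sh4. FN1 went against the other 4 on average, at -0.37 in the EMT lines (single lines -1.42 to 0.49). With sh4, the mesenchymal CDH2 stood 0.19 and 0.72 higher in the lines, and the epithelial RAB25 differed by 0.56 and -0.008. CDH1, which encodes E-cadherin, was at 11.31 in PC3-Epi and between 3.08 and 4.00 in the EMT lines. ZEB1, the target of sh4, was at 3.08 in PC3-Epi and at 6.81, 7.12 and 6.50 in the EMT lines, given here and below in the order PC3-EMT1, PC3-EMT12, PC3-EMT14. It stood at 9.87 with Scr and 9.12 with sh4 in PC3-EMT1, and at 10.08 and 9.01 in PC3-EMT14. Both sh4 arrays thus had less ZEB1 signal than their Scr partners, a difference of -0.91 ± 0.13 (SE) that did not pass limma with Benjamini-Hochberg adjustment (adjusted p = 0.236). Macrophages had been grown beside PC3-Epi to obtain the EMT lines. Of 16 macrophage markers, 2 were above background on each untransduced array, and their summed level was 214 in PC3-Epi and 233 to 242 in the EMT lines. The 2 were LAPTM5, at 5.11 to 5.57, and CD74, at 4.60 to 4.88, while CD14, CSF1R and PTPRC were under background on all 4. On the transduced arrays 4 to 5 of the 16 were above background, among them CSF1R at 6.71 to 6.79. No label describes the arrays of a group as separate cultures beyond being separate lines, so p-values measure the spread between these arrays, which may in part be technical.

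Many keratins gave no signal above background. On the untransduced arrays 14 of the 44 lay above the bacterial controls on at least 1 array, and on the transduced arrays 22 did. The other 22 genes stayed under them on all 8 arrays, with values of 2.25 to 4.49 and 3.22 to 6.00 in the respective sets. Of 6 simple epithelial keratins, 5 were above background in both sets, the exception being KRT23. Of 18 hair and root sheath keratins, 4 were above background on the untransduced and 7 on the transduced arrays. KRT5 and KRT14, the basal cell pair, lay at background on the untransduced arrays. KRT5 stood at 3.69 in PC3-Epi and at 4.01, 3.49 and 3.91 in the EMT lines, and KRT14 at 2.90 and at 3.01, 2.85 and 2.88. With Scr and sh4, KRT5 stood at 6.03 and 6.09 in PC3-EMT1 and at 5.91 and 6.09 in PC3-EMT14, close to the controls of that set. KRT14 stood at 5.28 and 5.17 in PC3-EMT1 and at 5.28 and 4.89 in PC3-EMT14, under the controls.

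**Figure D1:**
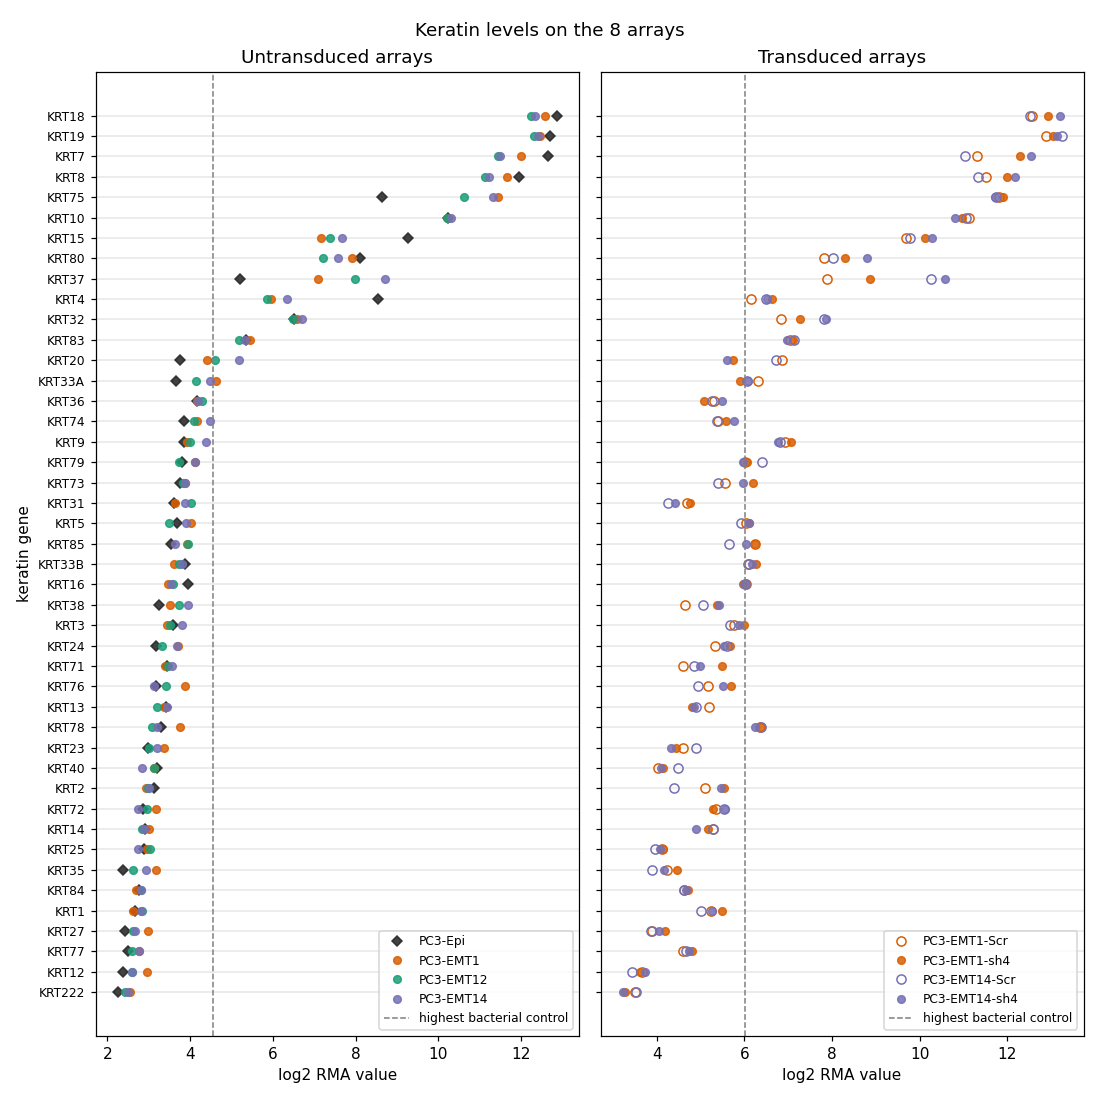
Log2 RMA values (x axis) of the 44 keratin genes (y axis, ordered by their mean on the untransduced arrays), with the 4 untransduced arrays on the left and the 4 transduced arrays on the right; each point is 1 array and the dashed line is the highest bacterial control probe set of the set (4.56 and 6.00). KRT18, KRT19, KRT7 and KRT8 lie far above the controls on all 8 arrays, whereas 22 genes lie to the left of the line on all of them.

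PC3-Epi was set against the EMT lines to learn which keratins differed after the transition. The simple epithelial keratins KRT7, KRT8, KRT18 and KRT19 were still far above background in all 3 mesenchymal lines, and of these KRT7 alone fell by the test, about 2-fold. KRT4 and KRT15, keratins of stratified epithelia, fell several-fold. KRT75 and KRT37, keratins of the hair follicle, rose several-fold. Of 13 keratins with a log2 value of at least 5 on 1 of the 4 arrays, 5 passed limma at an adjusted p of 0.05 (38.5%), with 2 up and 3 down. Among all 11921 genes tested, 29.3% were called, 13.9% higher and 15.4% lower. The median difference was -0.30 over the 13 keratins and 0.07 over all genes tested. In an array of bulk RNA, fewer cells of a type and less RNA per cell cannot be told apart.

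KRT8 and KRT18 form the primary filament of simple epithelia. KRT18 stood at 12.87 in PC3-Epi and at 12.59, 12.24 and 12.34 in the EMT lines. KRT8 stood at 11.96 in PC3-Epi and at 11.67, 11.12 and 11.24 in the same lines. Every EMT line was thus below PC3-Epi for both, by a mean of -0.48 ± 0.18 for KRT18 (adjusted p = 0.0977) and -0.61 ± 0.24 for KRT8 (adjusted p = 0.0998), and neither passed the test. The 95% intervals ran from -0.92 to -0.03 and from -1.20 to -0.03. KRT8 is called without PC3-EMT1 (-0.78, adjusted p = 0.0226). Both genes were read by probe sets whose probes may match related sequences, and each has many processed pseudogenes.

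KRT7, the type II keratin of ducts and glands, stood at 12.66 in PC3-Epi and at 12.003, 11.44 and 11.50 in the EMT lines. It fell by 1.01 ± 0.25 (adjusted p = 0.0317), with PC3-EMT1 nearest to PC3-Epi. The call was lost without PC3-EMT14 (-0.94, adjusted p = 0.0593) and with the mean of its 4 probe sets (-0.10, adjusted p = 0.654), of which the 3 dimmer ones stood at 2.94 to 5.21. KRT19, the type I keratin that lacks most of a tail domain, stood at 12.69 in PC3-Epi and at 12.45, 12.32 and 12.41 in the EMT lines. Its difference of -0.30 ± 0.14 did not pass (adjusted p = 0.157), with an interval of -0.65 to 0.05. KRT20, typical of gut epithelium and of superficial urothelial cells, went the other way. It stood at 3.76 in PC3-Epi and at 4.40, 4.60 and 5.19 in the EMT lines, a difference of 0.97 ± 0.31 that did not pass (adjusted p = 0.0627). The values in PC3-Epi and PC3-EMT1 were under the bacterial controls, so the size is taken against background, and it was 0.371 (adjusted p = 0.142) with 32 added on the linear scale. KRT20 is called without PC3-EMT1 (1.13, adjusted p = 0.0283).

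KRT4, the type II keratin of mucosal stratified epithelia such as the oesophagus, was at 8.55 in PC3-Epi and at 5.95, 5.85 and 6.35 in the EMT lines. All 3 lines lay far below PC3-Epi and close to each other. The fall was 2.50 ± 0.22 (5.67-fold, adjusted p = 0.00188), the smallest p among the keratins. KRT13, its usual type I partner, lay at background on all 4 arrays, between 3.20 and 3.44. A dimmer KRT4 probe set was under the controls on all 4 arrays, at 4.45 in PC3-Epi and as low as 4.15 in PC3-EMT12, and averaged over both the difference was -1.37.

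KRT15, a type I keratin of basal cells and of the hair follicle bulge, stood at 9.27 in PC3-Epi. The EMT lines were at 7.16, 7.38 and 7.66, again without overlap, and the fall was 1.86 ± 0.22 (3.64-fold, adjusted p = 0.00418). KRT5, the type II protein it usually pairs with, was at background on all 4 untransduced arrays. KRT80, a type II keratin found near desmosomes in differentiating cells, was at 8.11 in PC3-Epi and at 7.90, 7.22 and 7.58 in the EMT lines, and its difference of -0.55 ± 0.27 did not pass (adjusted p = 0.166). KRT10, the suprabasal keratin of skin, differed by 0.01 with a 95% interval of -0.33 to 0.35, and its levels spanned only 10.21 to 10.30 over the 4 arrays. Its probe sets also may match related sequences, and the 2 others differed by -0.01 and 0.07. KRT1, the partner of KRT10, was at background.

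KRT75 is a type II keratin of the companion layer of the hair follicle. It stood at 8.63 in PC3-Epi and at 11.44, 10.63 and 11.33 in the EMT lines, the lowest of which was still 2.00 above PC3-Epi. The rise was 2.50 ± 0.33 (5.67-fold, adjusted p = 0.00565). KRT37, a type I hair keratin, was at 5.20 in PC3-Epi, just above the controls, and at 7.09, 7.98 and 8.70 in the same lines. It rose by 2.73 ± 0.56 (6.62-fold, adjusted p = 0.0197), with the widest spread between lines of any keratin tested, an SD of 0.81. The other hair keratins with a value over 5 did not move with it. KRT32, of the hair cuticle, differed by 0.07 (interval -0.32 to 0.46) and KRT83, of the hair cortex, by -0.03 (interval -0.44 to 0.38). KRT33A stood at 3.66 in PC3-Epi and at 4.63, 4.15 and 4.48 in the EMT lines, above the controls in PC3-EMT1 alone, and was not tested.

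KRT4 and KRT15 were at least 2-fold lower, and KRT75 and KRT37 at least 2-fold higher, in each of the 3 EMT lines. Of all genes tested, 7.85% met this rule, 2.95% higher and 4.9% lower. Of the 13 keratins, 7 were lower than PC3-Epi in all 3 lines (53.8%, against 36.7% of all genes tested) and 3 were higher in all 3 (23.1%, against 46%). The 3 differences of a gene share the single PC3-Epi array.

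**Figure D2:**
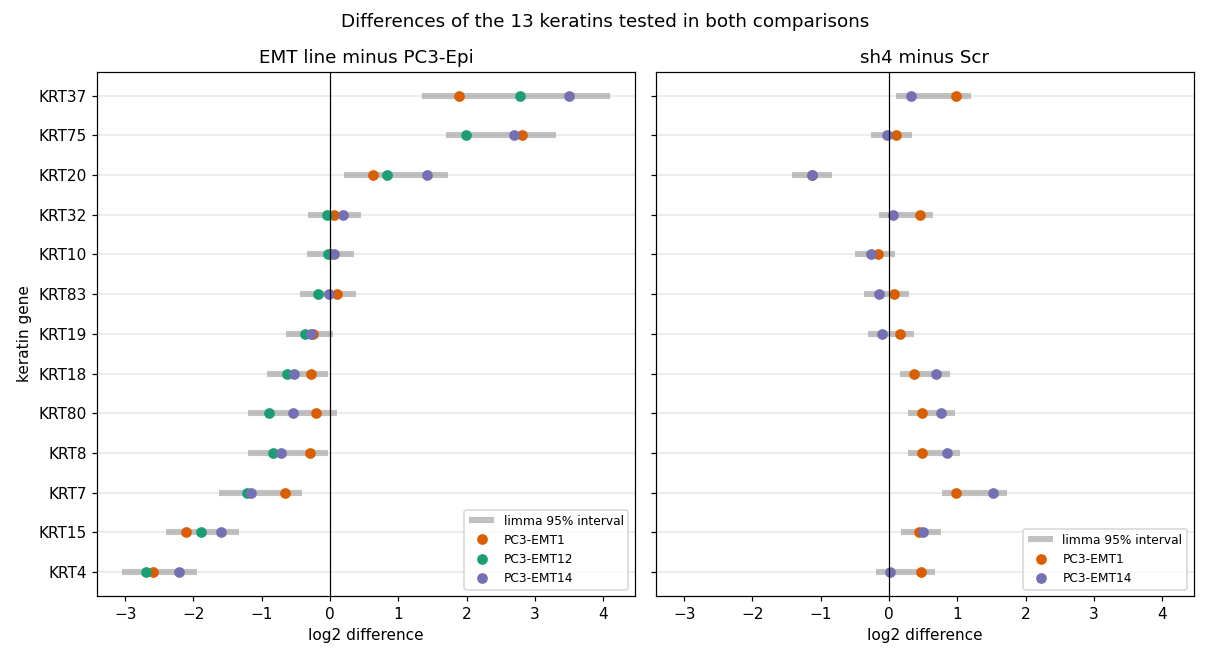
Log2 differences (x axis) of the 13 keratins tested in both comparisons (y axis), with each EMT line minus PC3-Epi on the left and sh4 minus Scr within a line on the right; points are single lines and grey bars the 95% interval of the limma estimate. On the left KRT4 and KRT15 lie below -1 and KRT75 and KRT37 above 1 in all 3 lines; on the right KRT20 lies at -1.13 in both lines, with its points on top of each other.

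Among the keratins that moved furthest, KRT4, KRT37 and KRT15 stood beside keratins that did not pass the test or were at background. KRT75 was parted from KRT84 and KRT5, the nearest keratins analysed, by 1 and 3 other protein-coding genes. Those genes were not among the keratins analysed. KRT4, KRT79, KRT78, KRT8 and KRT18 follow each other on chromosome 12 with no other protein-coding gene between them in the RefSeq table of GRCh38.p14. KRT4 fell, KRT8 and KRT18 stood at -0.61 and -0.48, and KRT79 and KRT78 between them were at background in the EMT lines and PC3-Epi alike. On chromosome 17, KRT31, KRT37, KRT38 and KRT32 are neighbours in the same sense. KRT37 rose by 2.73, whereas KRT32 differed by 0.07 and KRT31 and KRT38 were at background. KRT38 stood at 3.25 in PC3-Epi and at 3.51, 3.74 and 3.95 in the EMT lines. KRT13, KRT15 and KRT19, likewise adjacent, held 1 gene at background, 1 that fell by 1.86 and 1 at -0.30.

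**Figure D3:**
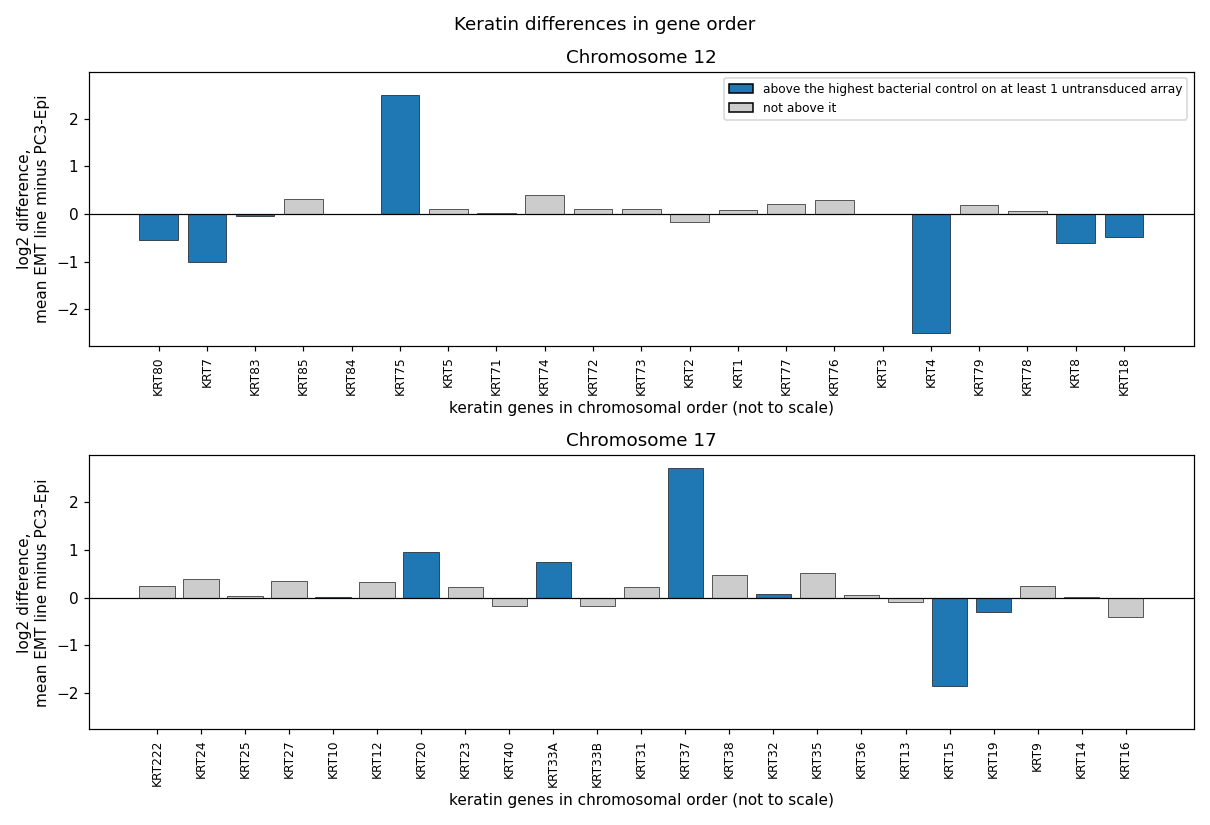
Log2 difference of the mean EMT line from PC3-Epi (y axis) for the keratin genes in their order along chromosome 12 (top) and chromosome 17 (bottom), not drawn to scale; blue bars are genes above the highest bacterial control on at least 1 untransduced array and grey bars the others. The 4 longest bars, for KRT75, KRT4, KRT37 and KRT15, each stand beside short bars. Genes not analysed are left out, and for KRT75 such genes lie between it and the keratins drawn on either side.

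Promoter windows from RefSeq (GRCh38.p14) were found for 29 of the 44 genes. The 250 bases before the start are shown for the 2 genes that rose, for KRT38 as the neighbour of KRT37, for KRT4 as the largest fall, and for KRT20, the 1 keratin that differed 2-fold with sh4 in both lines (described next). All lie on the minus strand, at chr12:52434372-52434621, chr17:41424586-41424835, chr17:41440984-41441233, chr12:52814117-52814366 and chr17:40885243-40885492, and are written 5′ to 3′ in the direction of transcription. Capitals mark TATAAA and ATAAAA on the printed strand, which overlap in TATAAAA.
KRT75: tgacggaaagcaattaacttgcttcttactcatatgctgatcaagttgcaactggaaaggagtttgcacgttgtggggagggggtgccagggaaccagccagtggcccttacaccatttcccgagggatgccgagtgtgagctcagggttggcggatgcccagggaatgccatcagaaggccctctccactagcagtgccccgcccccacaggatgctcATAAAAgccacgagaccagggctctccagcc
KRT37: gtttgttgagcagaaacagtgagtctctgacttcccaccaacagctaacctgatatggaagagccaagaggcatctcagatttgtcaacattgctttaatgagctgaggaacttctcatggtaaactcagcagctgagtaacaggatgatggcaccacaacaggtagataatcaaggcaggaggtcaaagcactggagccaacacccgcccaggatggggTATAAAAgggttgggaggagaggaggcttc
KRT38: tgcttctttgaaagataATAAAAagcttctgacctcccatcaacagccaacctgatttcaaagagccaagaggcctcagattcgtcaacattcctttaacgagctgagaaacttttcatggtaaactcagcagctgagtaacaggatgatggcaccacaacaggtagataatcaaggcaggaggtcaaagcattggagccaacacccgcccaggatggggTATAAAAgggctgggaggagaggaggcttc
KRT4: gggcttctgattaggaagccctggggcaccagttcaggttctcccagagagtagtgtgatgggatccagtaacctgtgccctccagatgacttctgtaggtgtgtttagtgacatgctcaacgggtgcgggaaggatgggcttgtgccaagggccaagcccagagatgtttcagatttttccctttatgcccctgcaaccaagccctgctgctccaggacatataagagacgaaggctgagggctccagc
KRT20: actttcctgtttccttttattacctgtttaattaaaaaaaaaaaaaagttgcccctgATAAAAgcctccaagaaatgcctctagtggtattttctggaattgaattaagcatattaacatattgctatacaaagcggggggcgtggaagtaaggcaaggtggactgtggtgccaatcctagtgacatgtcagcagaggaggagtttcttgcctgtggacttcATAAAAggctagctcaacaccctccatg
The windows of KRT37 and KRT38 were identical in 223 of 252 aligned columns (88.5%), including TATAAA at -30, while the other pairs of these 5 shared 44.8% to 49.8%. The adjacent genes thus had like promoter letters, one at 5.20 to 8.70 on the untransduced arrays and the other at background. KRT75 held ATAAAA at -31 and KRT20 at -193 and -28, KRT38 held a further one at -233, and KRT4 held neither motif. Both strands were counted, keratins by gene (a match in any window of the gene) and the background by single window, so the shares are not strictly alike. TATAAA was in 16 of the 29 keratin genes and in 10.7% of all 35116 RefSeq windows, and ATAAAA in 19 of 29 and 14.8%. CACCTG, an E-box form that ZEB1 is known to bind, was before the start in 4 of the 29 keratin genes (KRT5, KRT33B, KRT71 and KRT79) and in 17.5% of all windows. It was in none of the 5 sequences shown, although in the full window of 300 bases, read past the start, KRT75 held it at -1 and at 35 and KRT20 at 33. Other forms of the ZEB1 site were not searched for, so these counts do not show which windows lack one.

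The Scr and sh4 arrays were compared within PC3-EMT1 and PC3-EMT14 to ask which keratins differ when ZEB1 is targeted. KRT7, KRT8, KRT18 and KRT80 stood higher with sh4 in both lines, and KRT20 stood lower in both. Of the 2 keratins raised in the EMT lines, KRT37 stood higher with sh4 in both and KRT75 differed by at most 0.10. With 4 arrays and the line as a block, limma called none of the 34 keratins tested and 0% of 16661 genes. Without adjustment, 11 of the 34 keratins had a p under 0.05, 10 higher and 1 lower, as had 15% of all genes, 7.95% higher and 7.05% lower. Of the 10, KRT2, KRT38 and KRT76 were under the bacterial controls on all 4 transduced arrays and KRT73 was above them on 1. The untransduced arrays of the same 2 lines were then added to estimate the spread (6 arrays). In that fit 1.18% of all genes tested were called (0.69% of all genes tested were called higher), among them 1 keratin, KRT7. The added arrays lie on the other scale, and the fit takes the difference between lines as equal in both sets.

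KRT7 stood at 11.30 with Scr and 12.29 with sh4 in PC3-EMT1, and at 11.02 and 12.55 in PC3-EMT14. Both sh4 arrays lay above both Scr arrays, with a difference of 1.26 ± 0.17 (2.39-fold, adjusted p = 0.236). Averaged over the 4 KRT7 probe sets, it was 0.405. In the fit of 6 arrays, which spans both scales, the difference of 1.26 had an SE of 0.18 and passed (adjusted p = 0.0333). The brightest of its other probe sets stood at 6.24 and 6.54 in PC3-EMT1 and at 6.35 and 6.41 in PC3-EMT14.

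KRT8 was at 11.52 with Scr and 11.999 with sh4 in PC3-EMT1, and at 11.33 and 12.17 in PC3-EMT14. KRT18 was at 12.56 and 12.93 in PC3-EMT1, and at 12.51 and 13.19 in PC3-EMT14. For this filament pair too, both sh4 arrays lay above both Scr arrays, by 0.66 ± 0.14 (adjusted p = 0.274) and 0.53 ± 0.13 (adjusted p = 0.283), without passing. KRT19 differed by 0.16 in PC3-EMT1 and -0.10 in PC3-EMT14, from 12.88 to 13.04 and from 13.24 to 13.14, with an interval for the mean of -0.31 to 0.37.

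KRT20 was the only keratin at least 2-fold different, and the same way, in both lines. Of all genes 0.408% met this rule, 0.276% higher and 0.132% lower. It stood at 6.86 with Scr and 5.73 with sh4 in PC3-EMT1, and at 6.73 and 5.60 in PC3-EMT14. Both Scr arrays were above the bacterial controls and both sh4 arrays below them, and the difference was -1.13 ± 0.10 (adjusted p = 0.164, and 0.0702 with 6 arrays). After median centring or quantile normalisation of the arrays the difference passed the test (adjusted p = 0.0487 and 0.0406).

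KRT15 was at 9.68 with Scr and 10.11 with sh4 in PC3-EMT1, and at 9.78 and 10.28 in PC3-EMT14. Its difference was 0.47 ± 0.10 (adjusted p = 0.278). KRT4 was at 6.15 and 6.62 in PC3-EMT1 but at 6.49 and 6.51 in PC3-EMT14, a mean of 0.24 ± 0.15 (adjusted p = 0.493). The gene with the largest fall among keratins in the EMT lines therefore differed by 0.02 in 1 of the 2 lines with sh4. KRT80 stood 0.48 and 0.76 higher with sh4 in the 2 lines (mean 0.62 ± 0.13, adjusted p = 0.266).

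KRT75 stood at 11.80 with Scr and 11.90 with sh4 in PC3-EMT1, and at 11.73 and 11.71 in PC3-EMT14. Its mean difference was 0.04 with a 95% interval of -0.26 to 0.34, against a rise of 2.50 in the EMT lines. KRT37 stood at 7.87 and 8.86 in PC3-EMT1 and at 10.25 and 10.57 in PC3-EMT14, a difference of 0.65 ± 0.20 (adjusted p = 0.308) that was upward in both lines. KRT2, KRT38 and KRT76 had mean differences of 0.75, 0.54 and 0.54 but stayed under the bacterial controls on all 8 arrays. KRT73 (0.61) was above them on 1 array. The remaining keratins above the controls were KRT9, KRT78 and KRT33B on all 4 transduced arrays, at 6.77 to 7.06, 6.24 to 6.38 and 6.09 to 6.26, and KRT5, KRT16, KRT33A, KRT79 and KRT85 on 3 arrays each, and their mean differences lay between -0.19 and 0.20. KRT10, KRT32 and KRT83, above the controls on all 8 arrays, stood at -0.21, 0.25 and -0.04, and none passed.

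Counting direction alone, 19 of the 34 keratins were higher with sh4 in both lines (55.9%, against 35.1% of all genes tested) and 4 were lower in both (11.8%, against 28.7%). Among the higher, KRT1, KRT2, KRT3, KRT38, KRT71, KRT74 and KRT76 were under the bacterial controls on all 4 transduced arrays. KRT73 was above them on 1, and among the lower, KRT13 and KRT14 were under them on all 4. The direction of these genes is thus limited by background. The median difference was 0.16 over the keratins and 0.02 over all genes. Of the 13 keratins tested in both comparisons, 6 were lower in all 3 EMT lines and higher with sh4 in both lines, namely KRT4, KRT7, KRT8, KRT15, KRT18 and KRT80 (46.2%, against 12.8% of 11907 genes). KRT20 alone was higher in the EMT lines and lower with sh4 (7.69%, against 17.1%). PC3-EMT1 and PC3-EMT14 serve in both comparisons, on different arrays.

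**Figure D4:**
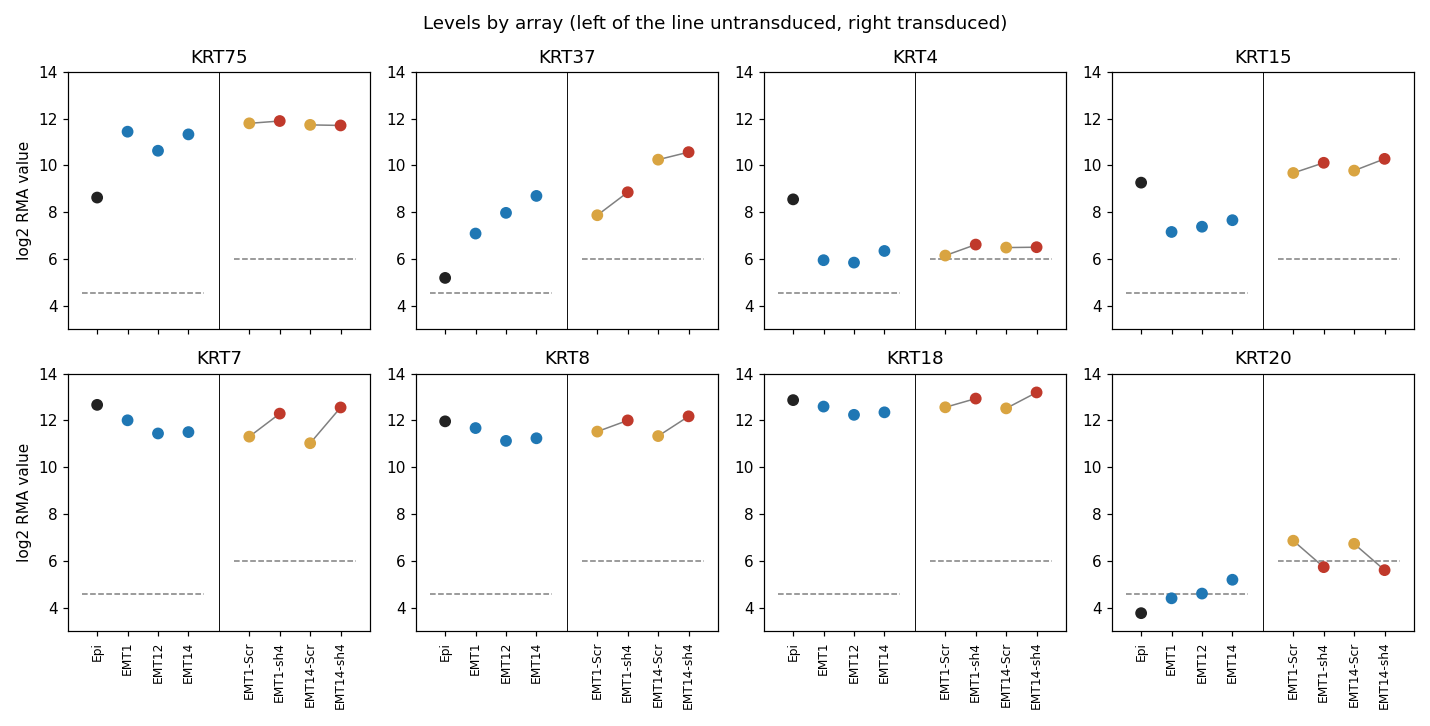
Log2 RMA values (y axis) of 8 keratins on each array (x axis, names without the PC3 prefix), with the untransduced arrays left of the vertical line (black, PC3-Epi; blue, EMT lines) and the transduced arrays right of it (yellow, Scr; red, sh4; grey lines join 1 cell line); dashed lines are the highest bacterial controls, and levels cannot be compared across the vertical line. KRT7, KRT8 and KRT18 are lower in the EMT lines and higher with sh4, KRT20 runs the other way, and KRT75 and KRT37 are high in the EMT lines and differ with sh4 by 0.04 and 0.65 on average.

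KRT37 also separated the mesenchymal lines from each other. PC3-EMT14 exceeded PC3-EMT1 by 1.61 among the untransduced arrays, by 2.38 with Scr and by 1.71 with sh4, the same direction in all 3 pairs. PC3-EMT12 lay between them, 0.89 above PC3-EMT1. KRT32, which lies beyond KRT38 on chromosome 17, differed in the same direction by 0.14, 0.99 and 0.59. KRT75 showed no such gap, with differences of -0.12, -0.07 and -0.19, and its lowest EMT line was PC3-EMT12, 0.81 below PC3-EMT1. The lines are single arrays in each pair, so these are values without a test.

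Genes whose products meet keratins were examined as lists, and their counts are to be read against the 13.9% of all genes tested that rose and the 15.4% that fell in the EMT lines. Of 21 tested linkers and partners of keratin filaments, 11 fell, 3 rose and 7 did not pass in the EMT lines, with a median of -0.75. Desmoplakin (DSP), which ties keratins to the desmosome, fell by 2.76 ± 0.29, and periplakin (PPL), the desmosomal cadherin DSG2 and epiplakin (EPPK1) fell by 1.87, 1.77 and 1.71. The cross-linker plectin (PLEC) rose by 0.60, and PKP1 and FBF1 rose by 0.65 and 0.87. Of 11 other intermediate filament proteins tested, 6 rose, against 13.9% of all genes, and none fell (median 0.80), led by vimentin (VIM, 1.91 ± 0.14), the neurofilament gene NEFL (1.67), the lens filament gene BFSP1 (1.12) and IFFO1 (1.05). VIM went from 11.25 in PC3-Epi to 13.19, 13.11 and 13.17 in the EMT lines, while the differences of KRT7, KRT8, KRT18 and KRT19 in single lines ran from -1.22 to -0.245.

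Of 6 tested genes of squamous differentiation, KLK5 (-3.33), SERPINB3 (-2.35) and SCEL (-2.04) fell, against 15.4% of all genes, and 3 did not pass (median -1.23). Of 11 tested transcription factors known to act on keratin genes, ZEB1 (3.73) and TFAP2C (0.56) rose, 5 fell, EHF (-5.67), OVOL1 (-3.18), GRHL3 (-2.58), ELF3 (-1.34) and KLF4 (-0.82), and 4 did not pass (median -0.42), beside 13.9% of all genes called higher and 15.4% lower. The study picked EHF and OVOL1 on these arrays, so they are not independent evidence of direction. Of the marker lists, all 6 epithelial genes fell, with ESRP1 (-8.13), CDH1 (-7.74), RAB25 (-5.95) and ST14 (-4.87) first, and 4 of 5 mesenchymal genes rose, ZEB1, SPARC (2.41), VIM and CDH2 (0.74). Of 3 prostate genes HOXB13 rose by 2.33 and TMPRSS2 fell by 1.09, and the 1 macrophage gene tested did not pass. With sh4, limma called 0% of the 16661 genes tested. It thus called no member of these 8 lists, which sets none of them apart from other genes. The medians were 0.16 for keratin linkers (22 tested), 0.09 for other intermediate filament proteins (16), 0.16 for squamous genes (17) and 0.07 for the transcription factors (12), beside 1.58 for the epithelial and -0.91 for the mesenchymal markers, 0.11 for the prostate and 0.02 for the macrophage markers.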

How the data were processed

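Total RNA (250 ng) of 8 samples was hybridised to 1 Affymetrix oligonucleotide array each. The authors made log2 values with RMA (affy), and these deposited values of 54675 probe sets were used as given. Builds are not given in the sources used here. Of the probe sets, 41091 carried 1 gene symbol and 1801 several, and genes with a value of log2 5 on at least 1 array of a comparison were tested.

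In R 4.3.3, limma 3.58.1 (lmFit, eBayes) with Benjamini-Hochberg adjustment over all genes tested and a threshold of 0.05 compared the EMT lines with PC3-Epi (4 untransduced arrays, 2 residual degrees of freedom, prior 3.87) and sh4 with Scr (4 transduced arrays, line as a block, 1 residual degree of freedom, prior 2.97). PC3-Epi, with 1 array, was taken to have the spread of the EMT lines. The replicate number names the cell line and pairs Scr with sh4, whose deviations from group means correlated with r = 0.48 over 16661 genes. Genes at least 2-fold apart in each line were also counted. The number of arrays limits the precision.

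The keratins and the gene lists were chosen with earlier results of these data known. Values on every array are given for keratins called or 2-fold in every line and for KRT7, KRT8, KRT18, KRT19, KRT5, KRT14 and KRT15. Other keratins above the bacterial controls are named by their ranges, and up to 4 called members are named per list by the size of the difference. PLEC, PKP1, FBF1, TFAP2C, ELF3, KLF4, KRT2, KRT10, KRT38, KRT73 and KRT76, and the neighbours and partners of called keratins, were picked once values were known. Alternatives were no filter, a filter at log2 7, the mean of probe sets, median centring, quantile normalisation, 32 added on the linear scale, eBayes with a trend or robust, limits of 1.5-fold and 3-fold, fits without the block or with 6 arrays, and leaving out each line. Promoter windows were aligned globally with Biopython 1.88. Scripts were tested on simulated data.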

Additional observations from a re-analysis of the deposited data

Results flagged for a closer look

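The probe set annotated with both LOC100653049 and KRT34, a hair keratin, was outside the comparisons because it carries more than 1 symbol. It lay above the bacterial controls of 4.56 on all 4 untransduced arrays, with 4.75 in PC3-Epi, 5.37 in PC3-EMT1, 5.07 in PC3-EMT12 and a highest value of 5.42 in PC3-EMT14. All 3 EMT lines were above PC3-Epi, by 0.63, 0.32 and 0.67. With Scr and sh4 it stood at 5.53 and 5.61 in PC3-EMT1 and at 6.03 and 6.11 in PC3-EMT14, a difference of 0.08 in both lines. Which of the named loci gave the signal was not tested.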

How the results depend on the processing

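KRT4, KRT15, KRT75 and KRT37 were called in the EMT lines, in the direction given, under every alternative run, with KRT4 between -2.65 and -1.37 and KRT37 between 2.02 and 3.14. The number of keratins called lay between 4 and 7. It was 7 with an eBayes trend, which added KRT18 and KRT19 (adjusted p = 0.031 and 0.028). The median difference of the keratins in the EMT lines was 0.079 without a filter, where all 44 genes enter and most are at background, -0.512 with a filter at log2 7, -0.032 with the mean of probe sets, and between -0.381 and -0.263 when 1 line was left out. The mean of probe sets also turned KRT19 to 0.031, since its other probe set is at background. Without PC3-EMT14, 1841 genes in all were called in place of 3496.

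With sh4, 1 keratin was called after median centring and after quantile normalisation (KRT20, -1.15 in both) and 1 in the fit of 6 arrays (KRT7). Without the replicate block, 0 keratins and 1 gene in all were called. The keratins 2-fold in both lines numbered 0 with the filter at log2 7, with 32 added and at a limit of 3-fold, and 3 at a limit of 1.5-fold (KRT20, KRT7 and KRT73). The number was 1 to 3 when 1 line was left out, where a single pair leaves no test. The median was 0.36 with the filter at log2 7 and 0.108 with 32 added. KRT19 turned to -0.10 with the mean of probe sets. With 1 line left out, KRT19 lay between -0.096 and 0.159 and KRT75 between -0.024 and 0.1, the negative values without PC3-EMT1. The cause of these changes was not tested unless stated. PC3-Epi has no replicate, so every EMT difference rests on 1 array, and differences of genes near the bacterial controls are limited by background.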
